A study of Mus musculus with 15 samples.

Results

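Cell cycle inhibitors and antiproliferative genes were measured in the gastrocnemius, a calf muscle, of old CR, old and young male mice. The genes were chosen by name: the cyclin-dependent kinase (CDK) inhibitors Cdkn1a, Cdkn1b, Cdkn2a, Cdkn2b, Cdkn2c and Cdkn2d, the antiproliferative genes Btg1, Btg2 and Tob1, and Rb1. All 10 genes were on the array, as 14 of the 22626 non-control probe sets, and each of these 14 had a single gene symbol in the platform annotation. A probe set is the group of short probes that reads 1 transcript, mostly near its 3' end, and Cdkn1a, Cdkn1b, Btg1 and Btg2 had 2 probe sets each. The brighter of them is called probe set 1. Of the 14 probe sets, 9 were among the 48.1% of probe sets with the highest mean intensity and 5 were outside them (Cdkn1a probe set 2, Cdkn1b probe set 2, Cdkn2a, Cdkn2b and Btg1 probe set 2).

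The 15 mice were C57BL/6NHsd, individually housed, and the RNA of each was hybridized to an MOE430A array of its own. The old CR group was 5 mice of 25 months on lifelong caloric restriction, which made a difference of 26% in calories from the normal diet and was enriched in protein, vitamins and minerals. The old group was 5 mice of 25 months and the young group 5 mice of 5 months, both on the normal diet of 84 kcal per week, which is itself below free feeding. Values of single mice are given in the order of their replicate numbers, 2, 3, 5, 6 and 7 for old CR and 1 to 5 for old and young. All mice were killed by cervical dislocation and the muscle was frozen, so each value is a mean over the whole tissue. In such bulk tissue, fewer cells of a type and less RNA per cell cannot be told apart.

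CDK inhibitors stop the cell cycle by binding the kinases that drive it. The CIP/KIP proteins p21 (Cdkn1a) and p27 (Cdkn1b) bind several cyclin-CDK complexes, and the INK4 proteins (Cdkn2a to Cdkn2d) bind CDK4 and CDK6. Both keep the retinoblastoma protein, encoded by Rb1, in the form that holds E2F transcription factors in check. BTG and TOB proteins slow proliferation in another way, by joining transcription regulators or the CCR4-NOT complex, which shortens the poly(A) tails of mRNA. Muscle fibers have left the cell cycle for good, and p21 and the retinoblastoma protein are known for their part in that exit, whereas satellite cells and other cells of the tissue can still divide.

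Among these genes, Cdkn1a was the one called higher in old than in young muscle, at 2.75 times the young level. Cdkn1a and Btg1 were the ones called lower in old CR than in old muscle, at 0.571 and 0.453 times the old level. None of the 14 probe sets was called between old CR and young muscle. The INK4 genes, Cdkn1b, Btg2, Tob1 and Rb1 were called in no comparison. A probe set was called at a Benjamini-Hochberg adjusted p under 0.05 in limma, adjusted over all 22626 probe sets. The study's methods describe another model and other processing of these arrays. It listed Cdkn1a probe set 1, both Btg1 probe sets and Rb1 as higher in old than in young muscle.

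Reference promoters of the 2 called genes are shown because these are the members whose levels moved. They are the 250 bases before annotated transcript starts in RefSeq (GRCm38.p6), 5' to 3' on the gene's strand, and 9 of the 10 members had such a window. Capitals mark matches, on either strand, to the GC box (GGGCGG), the CCAAT box, the TATA box (TATAA) and a 20-base p53 response element with at most 1 mismatch.
Cdkn1a, upstream start, chr17:29090729-29090978, plus strand: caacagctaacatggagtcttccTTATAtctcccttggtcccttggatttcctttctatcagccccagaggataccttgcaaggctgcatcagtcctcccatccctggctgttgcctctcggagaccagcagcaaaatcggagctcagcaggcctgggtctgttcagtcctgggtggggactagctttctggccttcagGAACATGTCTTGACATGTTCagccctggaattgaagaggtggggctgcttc
Cdkn1a, downstream start, chr17:29093519-29093768, plus strand: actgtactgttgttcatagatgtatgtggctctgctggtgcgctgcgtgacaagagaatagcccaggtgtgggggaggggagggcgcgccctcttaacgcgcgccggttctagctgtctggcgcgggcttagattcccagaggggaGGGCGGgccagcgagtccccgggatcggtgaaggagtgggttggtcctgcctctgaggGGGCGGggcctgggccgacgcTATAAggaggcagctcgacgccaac
Btg1, chr10:96616751-96617000, plus strand: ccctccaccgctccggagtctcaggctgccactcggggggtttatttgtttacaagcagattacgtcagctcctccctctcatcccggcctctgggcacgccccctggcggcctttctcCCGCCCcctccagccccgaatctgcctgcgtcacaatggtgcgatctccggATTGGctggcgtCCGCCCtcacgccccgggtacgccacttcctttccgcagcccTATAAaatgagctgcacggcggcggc
The upstream Cdkn1a window held the p53 element, with 1 mismatch, from 51 to 32 bases before the start. Cdkn1a is a textbook target of p53. The element was found in 0.0761% of the 32851 promoter windows (25), and in no other member's window. The downstream Cdkn1a window held 2 GC boxes and a TATA box 25 to 21 bases before the start. The Btg1 window held 2 GC boxes, a CCAAT box read on the minus strand and a TATA box 26 to 22 bases before the start. Of all windows, 32.7% held a GC box, 33.8% a CCAAT box and 22.8% a TATA box. These matches describe letters in the reference and were not measured in the mice.

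Probe set 1 of Cdkn1a had intensities of 698, 649, 589, 510 and 658 in the 5 old CR mice, 946, 875, 905, 1109 and 1772 in the 5 old mice, and 309, 416, 441, 370 and 444 in the 5 young mice. The 3 groups did not overlap, with every old mouse above every old CR mouse and every old CR mouse above every young mouse. The highest old mouse, replicate 5, lay well above the other 4. Means were 621 ± 73.2, 1122 ± 375 and 396 ± 57.1 in old CR, old and young muscle (SD, n = 5 each). Cdkn1a was higher in old than in young muscle by 1.46 on the log2 scale (SE 0.19, 95% confidence interval 1.05 to 1.87, adjusted p = 0.015 by limma). It was lower in old CR than in old muscle, with a log2 difference of -0.81 (SE 0.19, interval -1.21 to -0.40, adjusted p = 0.0304 by limma). Between old CR and young muscle the log2 difference was 0.65 (SE 0.19, interval 0.25 to 1.06), with an unadjusted p of 0.00391 and an adjusted p of 0.186 by limma.

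Probe set 2 of Cdkn1a was dim and scattered. It read 106, 22, 104, 33.7 and 38.3 in old CR mice, 12, 25.2, 120, 31.6 and 143 in old mice, and 34.4, 36.9, 23.8, 27.8 and 17.0 in young mice. The groups overlapped, and 2 old CR and 2 old mice read far above every young mouse. Its log2 differences were 0.70 for old against young (SE 0.64, interval -0.67 to 2.08) and 0.19 for old CR against old (SE 0.64, interval -1.19 to 1.56). The second interval includes the -0.81 of probe set 1.

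Btg1, which binds the CCR4-NOT deadenylase and the arginine methyltransferase PRMT1, is known for high levels in resting cells. Probe set 1 read 378, 270, 337, 466 and 229 in old CR mice, 467, 1065, 614, 791 and 799 in old mice, and 479, 238, 364, 382 and 323 in young mice. Every old mouse lay above every old CR mouse, though the lowest old mouse was within 1 unit of the highest old CR mouse. The old and young groups overlapped by 1 mouse, the old mouse at 467 below the young mouse at 479. Means were 336 ± 92.7 in old CR, 747 ± 225 in old and 357 ± 87.9 in young muscle (SD, n = 5 each). Btg1 was lower in old CR than in old muscle by a log2 difference of -1.14 (SE 0.25, interval -1.68 to -0.60, adjusted p = 0.0245 by limma). For old against young muscle the log2 difference was 1.05 (SE 0.25, interval 0.51 to 1.59), with an adjusted p of 0.0831 by limma, which did not pass. For old CR against young muscle it was -0.09 (interval -0.63 to 0.44, adjusted p = 0.922 by limma).

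The dimmer Btg1 probe set had estimates of the same sign as probe set 1 in both comparisons with old mice. It read 180, 161, 242, 174 and 109 in old CR mice, 180, 446, 280, 217 and 213 in old mice, and 147, 114, 259, 153 and 123 in young mice. All 3 groups overlapped. Its log2 difference was 0.74 for old against young (SE 0.28, adjusted p = 0.228 by limma) and -0.59 for old CR against old (SE 0.28, adjusted p = 0.238 by limma).

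Rb1, the pocket protein on which the CDK inhibitors act through CDK activity, read 514, 379, 397, 286 and 261 in old CR mice, 417, 613, 329, 578 and 512 in old mice, and 254, 176, 300, 291 and 293 in young mice. Every old mouse was above every young mouse, and old CR mice overlapped with both groups. Means were 368 ± 101, 490 ± 117 and 263 ± 51.7 in old CR, old and young muscle (SD, n = 5 each). The log2 difference of old and young was 0.89 (SE 0.23, interval 0.40 to 1.38), with an unadjusted p of 0.00148 and an adjusted p of 0.0958 by limma, which did not pass. That of old CR and old was -0.42 (interval -0.91 to 0.06, adjusted p = 0.298 by limma).

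**Figure D1:**
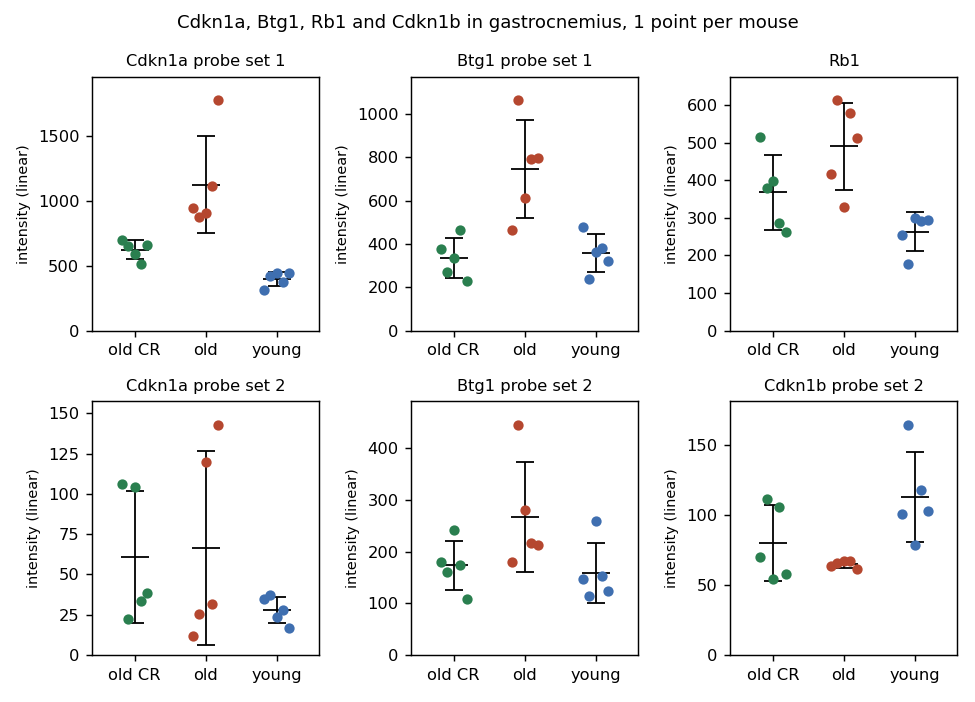
Intensity (linear, y axis from 0) of 6 probe sets in the old CR, old and young mice, with 1 point per mouse and bars for the mean and SD of 5 mice. Cdkn1a probe set 1 separates all 3 groups, with old mice from 875 to 1772, old CR mice from 510 to 698 and young mice from 309 to 444, and Btg1 probe set 1 has its old mice at 467 to 1065 above all old CR mice.

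Cdkn1b encodes p27, which is controlled largely through degradation of the protein. Probe set 1 read 387, 510, 410, 466 and 340 in old CR mice, 296, 393, 292, 281 and 343 in old mice, and 300, 270, 495, 266 and 409 in young mice, with overlap between all groups. Its log2 differences were -0.08 for old against young (interval -0.49 to 0.32) and 0.39 for old CR against old (interval -0.01 to 0.80, adjusted p = 0.239 by limma). The dimmer probe set 2 read 70.0, 112, 54.3, 106 and 58.0 in old CR mice, 64.0, 65.7, 67.3, 67.4 and 61.2 in old mice, and 101, 165, 78.8, 118 and 103 in young mice. Here the old mice lay within a narrow band below all young mice, at 65.1 ± 2.58 against 113 ± 32.3 (SD, n = 5 each). The log2 difference was -0.75 (SE 0.23, adjusted p = 0.133 by limma), which did not pass, and probe set 1 did not have the same separation.

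Of the INK4 genes, Cdkn2c (p18) and Cdkn2d (p19) were among the brighter probe sets. Cdkn2c read 1398, 1314, 1549, 1407 and 1637 in old CR mice, 1733, 1375, 1029, 1547 and 1095 in old mice, and 1206, 977, 1650, 1016 and 1333 in young mice. Its groups overlapped, and its log2 difference was 0.13 both for old against young and for old CR against old (interval -0.25 to 0.51 for each). Cdkn2d read 596, 492, 568, 498 and 626 in old CR mice, 571, 480, 467, 473 and 356 in old mice, and 698, 687, 478, 707 and 460 in young mice. Of the young mice 3 exceeded all other mice, and the other 2 fell among the old mice. The log2 difference of old and young was -0.36 (SE 0.17, unadjusted p = 0.0487, adjusted p = 0.32 by limma).

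Cdkn2a, the locus of p16 and of the ARF protein that stabilizes p53, and its neighbor Cdkn2b (p15) were dim. Cdkn2a read 72.5, 93.4, 11.2, 120 and 113 in old CR mice, 59.5, 89.0, 84.4, 90.5 and 74.2 in old mice, and 134, 129, 114, 110 and 100 in young mice. Every old mouse was below every young mouse, at 79.5 ± 12.9 against 118 ± 14 (SD, n = 5 each), while old CR replicate 5 read far below all other mice. The log2 difference of old and young was -0.57 with an SE of 0.50 and an adjusted p of 0.612 by limma. That SE uses the spread of all 3 groups, and without old CR replicate 5 the difference remained -0.57 with an adjusted p of 0.147. The probe set does not tell p16 from ARF here, and by the study's detection calls p16 was at background on these arrays, so the values of Cdkn2a may hold no signal of the transcript. The study did detect p16 by RT-PCR, and there it was significantly higher in old than in young muscle, the opposite direction. Cdkn2b read 30.0, 109, 88.7, 40.1 and 140 in old CR mice, 127, 145, 181, 122 and 84.6 in old mice, and 37.3, 76.1, 125, 53 and 42.2 in young mice. Old mice were mostly higher than young mice but overlapped with them, and the log2 difference was 1.09 (SE 0.43, adjusted p = 0.241 by limma). For old CR against old it was -0.88 (SE 0.43, adjusted p = 0.251 by limma).

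Btg2, a p53 target and early response gene, had estimates close to 0 for old against young muscle. Probe set 1 read 767, 571, 737, 591 and 697 in old CR mice, 774, 555, 663, 876 and 977 in old mice, and 586, 822, 769, 745 and 862 in young mice, with all groups overlapping. Its log2 difference was 0.01 for old against young (interval -0.35 to 0.37) and -0.17 for old CR against old (interval -0.53 to 0.18). Probe set 2 read 436, 466, 691, 560 and 452 in old CR mice, 379, 275, 262, 370 and 506 in old mice, and 284, 462, 309, 259 and 496 in young mice. Here old CR mice were higher than most old mice, with a log2 difference of 0.56 (SE 0.23, adjusted p = 0.174 by limma). The 2 Btg2 probe sets thus had estimates of opposite sign for old CR against old muscle, neither of them called.

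Tob1, a relative of the BTG proteins, read 2757, 3799, 3724, 3403 and 2960 in old CR mice, 2516, 3540, 3013, 2790 and 2046 in old mice, and 2678, 2352, 2521, 2943 and 2702 in young mice. Most old CR mice were high, but all groups overlapped. The log2 difference was 0.06 for old against young (interval -0.27 to 0.38), 0.27 for old CR against old (adjusted p = 0.319 by limma) and 0.33 for old CR against young (unadjusted p = 0.0489, adjusted p = 0.411 by limma).

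**Figure D2:**
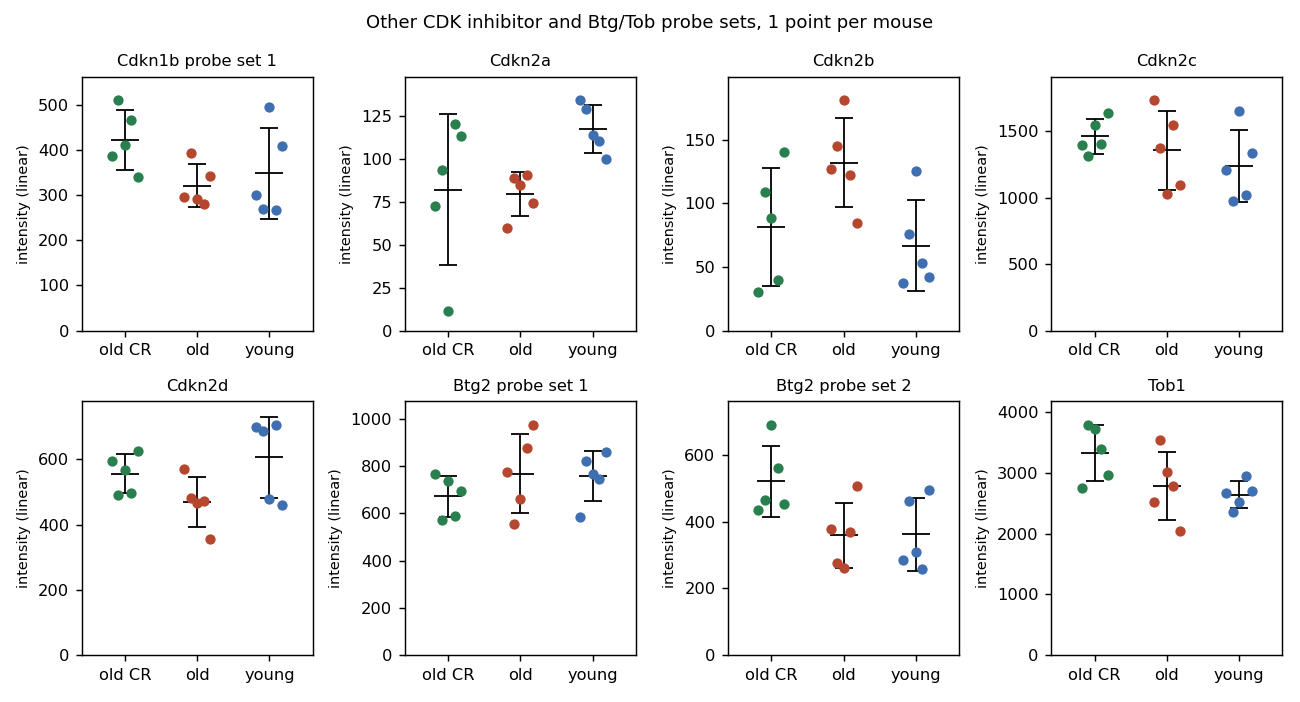
Intensity (linear, y axis from 0) of the other 8 probe sets in old CR, old and young mice, with 1 point per mouse and bars for the mean and SD of 5 mice. The groups overlap in each panel for all pairs, except that the old mice are below the young mice for Cdkn2a, where old CR replicate 5 stands at 11.2.

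For old against young muscle, 1 of the 14 probe sets was called (7.14%), against 0.265% of all probe sets (60 of 22626). That background itself moved with single arrays, to 0 to 45 probe sets in 14 of the 15 fits that left out 1 array (0 without young replicate 1, 8 to 11 without young replicate 2, 4 or 5) and to 1067 without young replicate 3. At an unadjusted p under 0.05 there were 7, of which 5 were higher and 2 lower in old mice, against 15.5% of all probe sets (3505). There were 4 probe sets that did not overlap between the groups (28.6%; Cdkn1a probe set 1, Cdkn1b probe set 2, Cdkn2a, which the study's detection calls put at background, and Rb1), against 3.61% of all probe sets, and the first and last of these were higher and the others lower in old mice. The median log2 difference was 0.09 over the 14 probe sets and -0.06 over all probe sets. The members were chosen with earlier results of these data known. A share above that of all probe sets, here and below, is therefore no independent evidence.

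For old CR against old muscle, 2 of the 14 were called (14.3%), both lower in old CR mice, against 4.87% of all probe sets (1102), which were split into 612 higher and 490 lower. The same 2 probe sets were the ones with no overlap, against 8.89% of all probe sets. At an unadjusted p under 0.05 there were 3, against 21.9% of all probe sets (4950). The median log2 difference was -0.02 over the 14 and 0.06 over all probe sets. For old CR against young muscle 0 of 14 were called by limma, against 0.0884% of all probe sets (20). At an unadjusted p under 0.05 there were 4, of which 3 were higher and 1 lower in old CR mice, against 12.1% of all probe sets (2737). Cdkn1a probe set 1 alone did not overlap (7.14%, against 3.57% of all probe sets). The comparisons of old with young and of old CR with old share the old mice, so that an old group high for a gene raises the one difference and lowers the other.

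**Figure D3:**
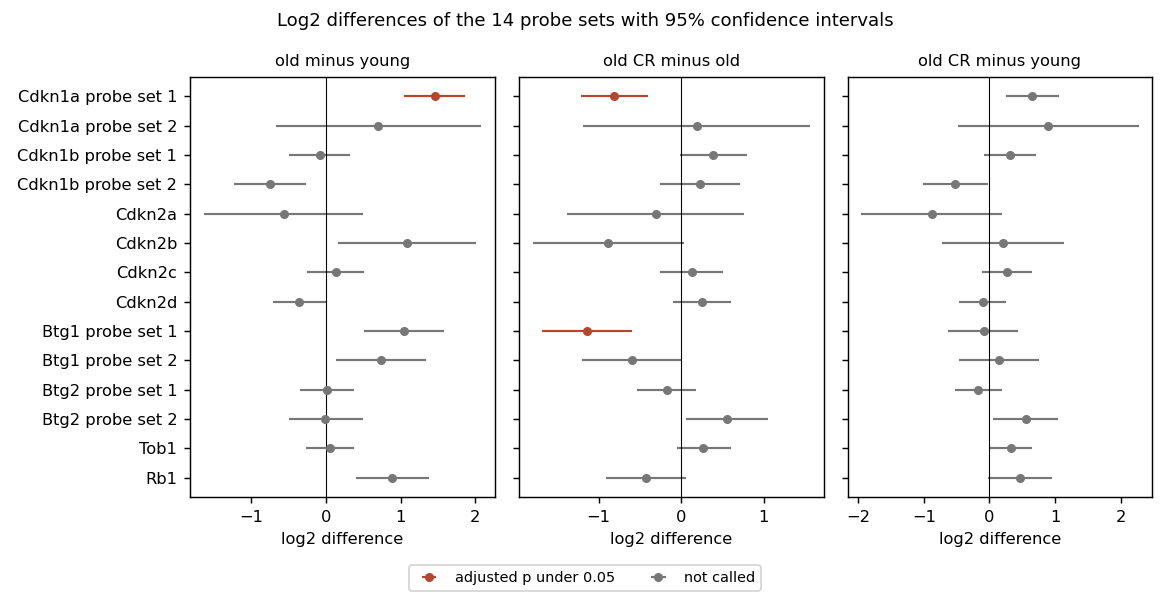
Log2 differences (x axis) of the 14 probe sets (rows) for old minus young, old CR minus old and old CR minus young, with 95% confidence intervals from limma. Red marks the called values, which are Cdkn1a probe set 1 at 1.46 and -0.81 and Btg1 probe set 1 at -1.14, and the widest intervals belong to the dim Cdkn1a probe set 2, Cdkn2a and Cdkn2b.

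The calls depended on single arrays. Cdkn1a was called higher in old than in young muscle in 14 of the 15 fits that left out 1 array, with log2 differences of 1.28 to 1.54, and its adjusted p was 0.0549 by limma without young replicate 1. The call for old CR against old held in 11 of 15 such fits for Cdkn1a (log2 differences -0.88 to -0.63, adjusted p 0.025 to 0.0669) and in 11 of 15 for Btg1 (-1.30 to -1.0, adjusted p 0.0203 to 0.0584). Cdkn1a lost it without old replicate 4 or old CR replicate 5, 6 or 7, and Btg1 without old replicate 2 or 5 or old CR replicate 3 or 7. Without young replicate 3, 4 of the 14 probe sets were called for old against young (28.6%), namely Cdkn1a probe set 1, Cdkn1b probe set 2, Btg1 probe set 1 and Rb1, against 4.72% of all probe sets (1067). Among that brightest 48.1% of probe sets, 3 of 9 were called for old against young (33.3%; Cdkn1a, Btg1 and Rb1), against 5.54% of those probe sets (603).

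**Figure D4:**
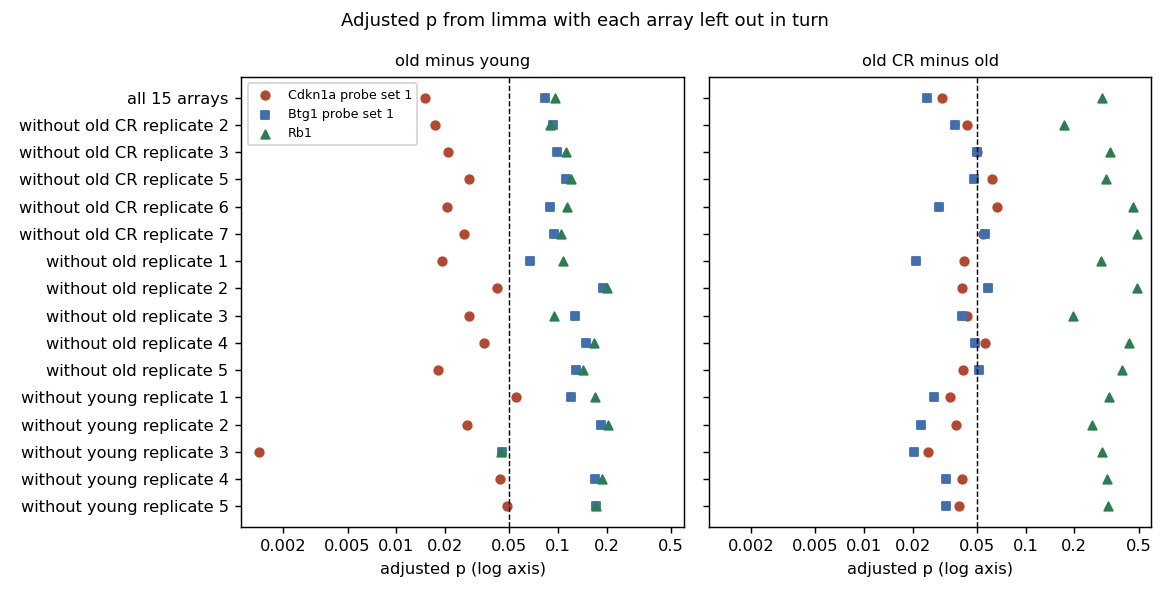
Adjusted p from limma (x axis, log scale) of Cdkn1a probe set 1, Btg1 probe set 1 and Rb1 with all 15 arrays and with each array left out (rows), for old minus young and old CR minus old. The dashed line is 0.05: of the 15 rows with an array left out, Cdkn1a stays left of it in 14 for age, and Cdkn1a and Btg1 each in 11 for CR.

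A measure of RNA quality differed between the groups. The mean log2 difference between the 3' and 5' control probe sets of Gapdh and Actb was -0.42 to -0.21 in old CR, 0.05 to 0.27 in old and -0.28 to 0.06 in young mice. With that difference as a covariate, Cdkn1a was 1.48 higher in old than in young muscle (SE 0.33, adjusted p = 0.452 by limma). In the same fit, old CR against old muscle gave -0.83 for Cdkn1a (SE 0.41, adjusted p = 0.788 by limma) and -1.51 for Btg1 (SE 0.53, adjusted p = 0.647 by limma). These differences of probe set 1 of Cdkn1a and Btg1 were at least as large as without the covariate, their errors were larger, and no member was called. Other estimates for old CR against old shrank, from -0.59 to -0.1 for Btg1 probe set 2 and from -0.88 to -0.02 for Cdkn2b. That of Cdkn1b probe set 1 grew from 0.39 to 0.98. The measure did not overlap between old CR and old mice and barely did between old and young, so RNA quality cannot be told apart from diet or age here.

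Lists of cell type markers had few called probe sets. Over all probe sets, 4.87% were called for old CR against old, 0.265% for old against young and 0.0884% for old CR against young. Of the 6 B and plasma cell markers 5 were measured, by 16 probe sets, and 1 of these was called, a probe set of Ighm (IgM heavy chain) at 684 ± 209 in old CR and 3568 ± 2320 in old muscle (SD, n = 5 each). The summed intensity of the list was 770.6 to 3382 in old CR, 2155 to 6360 in old and 1603 to 3532 in young mice. The list did not move as a whole: for old CR against old, 2 of the 5 genes had estimates above 0 and 3 below. Among the dimmer Ighm probe sets were estimates of 0.54 and 0.76, not called, and Jchain had -1.67 (adjusted p = 0.0531 by limma). Of the 8 myofiber markers, all were measured, by 13 probe sets, and 2 probe sets of Myh1 (a fast myosin heavy chain) were called higher in old CR than in old mice, with sums of 190900 to 276900 in old CR, 170400 to 227800 in old and 214700 to 246000 in young mice. The 7 macrophage markers had no called probe set, with sums of 4622 to 6295 in old CR, 5998 to 8608 in old and 3920 to 8725 in young mice. The 7 satellite cell and myoblast markers had none called either, with sums of 14950 to 17500 in old CR, 9641 to 15460 in old and 8329 to 14080 in young mice. Most of these sums came from a probe set of Des, at 13790 ± 1160, 9264 ± 2300 and 9705 ± 2310 (SD, n = 5 each). For old CR against old, 5 of the 7 genes had estimates above 0 and 2 below. Myod1 was among the lower, at 558 ± 169 in old CR and 888 ± 187 in old muscle (SD, n = 5 each; adjusted p = 0.0727 by limma). Among the other 7 lists, probe sets of T cell, endothelium, smooth muscle, adipocyte and erythroid markers had 0 calls by limma in the 3 comparisons. A probe set of Mbp, a myelin protein of Schwann cells, averaged 519 ± 81.9 in old CR, 156 ± 64.1 in old and 513 ± 170 in young muscle (SD, n = 5 each) and was called for old against young (adjusted p = 0.0464 by limma) and for old CR against old (adjusted p = 0.012 by limma), while another Mbp probe set was called lower in old CR than in old. Among fibroblast markers a probe set of Col1a2, a collagen chain, was called for old CR against young, at 2170 ± 353 and 6263 ± 1860 (SD, n = 5 each; adjusted p = 0.0472 by limma). Old mice were low as well, at 2696 ± 1070, with a log2 difference of -1.24 from young mice that was not called (adjusted p = 0.0556 by limma). The part of these cells in the levels of Cdkn1a and Btg1 was not tested.

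The genes around the inhibitors were described from 8 lists of relatives, partners and targets. None of their probe sets was called for old against young muscle. Over all probe sets, 0.265% were called for old against young, 4.87% for old CR against old and 0.0884% for old CR against young. At such shares, the lack of a call in a short list says little about its genes. Of the other CIP/KIP and pocket protein genes 3 of 4 were measured. Rbl2, a pocket protein that with E2F represses genes in resting cells, was at 496 ± 58.4 in old CR, 671 ± 48.2 in old and 678 ± 78.8 in young muscle (SD, n = 5 each) by its brighter probe set, with a log2 difference of -0.44 for old CR against old (adjusted p = 0.0515 by limma), and its other probe set had an estimate of 0.26. The relatives of BTG1 were represented by 2 of 3 genes, and no probe set of Tob2 or Btg4 was called.

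The targets of the inhibitors were 15 cyclin and CDK genes (29 probe sets) and 7 E2F family genes (9 probe sets). They had 0 calls by limma in the 3 comparisons. The shares of all probe sets called were 0.265% for old against young, 4.87% for old CR against old and 0.0884% for old CR against young. The smallest adjusted p for old against young was 0.306 for cyclins and CDKs (Ccnd2, a D-type cyclin) and 0.305 for E2F genes (Tfdp1, the E2F partner). Median log2 differences were -0.03 and 0.20 for these 2 lists, against -0.06 over all probe sets. Of the 42 probe sets of 21 proliferation and S-phase genes, 1 was called for old CR against old, against 4.87% of all probe sets. It was Rrm1, the large subunit of ribonucleotide reductase, which was higher in old CR than in old muscle. It averaged 627 ± 126 in old CR, 387 ± 61.3 in old and 682 ± 161 in young muscle (SD, n = 5 each), with a log2 difference of 0.69 for old CR against old (adjusted p = 0.0461 by limma) and -0.80 for old against young (adjusted p = 0.0732 by limma). Mki67, the proliferation marker Ki-67, was dim at 24.7 ± 12.6 in old CR, 62.9 ± 10.8 in old and 32.2 ± 21.6 in young muscle and was not called (SD, n = 5 each).

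Of the p53 genes and targets other than the members, 19 of 21 were measured, by 28 probe sets. Of these, 0 were called by limma in the 3 comparisons. Over all probe sets, 0.265% were called for old against young, 4.87% for old CR against old and 0.0884% for old CR against young. At these shares, 0 calls in 28 probe sets say little about the genes. Trp53, the gene of p53 itself, and Bax were not among those measured. Their median log2 difference was -0.03 for old against young and 0.04 for old CR against old, against -0.06 and 0.06 over all probe sets. Gadd45a, a stress gene that p53 induces, averaged 489 ± 270 in old and 210 ± 59.0 in young muscle (SD, n = 5 each), with a log2 difference of 1.12 and an adjusted p of 0.135 by limma. Ccng1 (cyclin G1), another p53 target, ran the other way, at 6455 ± 1260 in old CR, 3952 ± 597 in old and 6323 ± 1540 in young muscle (SD, n = 5 each). Its log2 differences were -0.65 for old against young (adjusted p = 0.157 by limma) and 0.70 for old CR against old (adjusted p = 0.07 by limma). Rrm2b, the p53-induced subunit of ribonucleotide reductase, was 0.45 higher in old than in young muscle on the log2 scale and did not pass (adjusted p = 0.157 by limma).

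The list of the CCR4-NOT complex and other partners of BTG and TOB proteins had 14 measured genes (32 probe sets). For old CR against old, 5 of the 32 were called, 2 higher and 3 lower, against 4.87% of all probe sets. By their brightest probe sets, 3 genes had estimates above 0 and 11 below, with a median of -0.19 against 0.06 over all probe sets. The summed intensity of the list was 13760 to 15550 in old CR, 16590 to 20240 in old and 15320 to 18530 in young mice. Prmt1, the methyltransferase that BTG1 and BTG2 bind, averaged 1619 ± 305 in old CR and 814 ± 29.9 in old muscle (SD, n = 5 each), and it rose in old CR by 0.97 on the log2 scale (adjusted p = 0.0113 by limma). Cnot8, a catalytic deadenylase subunit to which BTG and TOB proteins attach, averaged 754 ± 89.4 in old CR, 378 ± 33.0 in old and 721 ± 177 in young muscle (SD, n = 5 each). It was higher in old CR than in old by 0.99 on the log2 scale (adjusted p = 0.0113 by limma), and its difference of -0.89 for old against young had an adjusted p of 0.054 by limma. Carm1, another arginine methyltransferase, was lower in old CR muscle, at 1332 ± 112 against 1924 ± 135 in old muscle (SD, n = 5 each; adjusted p = 0.0176 by limma). Pabpc4, a cytoplasmic poly(A)-binding protein, was also lower, at 3697 ± 491 in old CR against 5646 ± 1040 in old muscle (SD, n = 5 each; adjusted p = 0.0346 by limma), by a probe set whose suffix marks probes shared with other sequences.

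Of 5 measured genes of the SCF-Skp2 ligase, which marks p27 for degradation, 1 of 12 probe sets was called for old CR against old. Over all probe sets the share was 4.87%. The called one was a probe set of Skp2 itself. It was dim, at 19.5 ± 6.45 in old CR and 9.44 ± 1.54 in old muscle (SD, n = 5 each; adjusted p = 0.0331 by limma), and the brightest Skp2 probe set, at 293 ± 73.8 and 221 ± 53.3, was not called (adjusted p = 0.277 by limma).

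The probe sets of other genes whose log2 values ran most alike across the 15 arrays were listed for each member from 10004 to 10006 bright probe sets. For Cdkn1a they were Taf10 (Pearson r = 0.881), Fcgr2b (0.869) and Tmem176a (0.853), and for Btg1 Ube2r2 (0.914), Lrrc58 (0.882) and Tesk1 (0.879). Rb1 ran most like Capn2 (0.889), Eid1 (0.867) and Cd36 (0.861). These values describe 15 arrays that share group differences and array-wide scaling, and no test was made on them. For Cdkn1b the most alike were Trappc2 (0.845), Rpl22l1 (0.844) and Arglu1 (0.811), for Btg2 Hfe (0.856), and for Tob1 Ddrgk1 (0.829). The INK4 genes had Sel1l (0.887, Cdkn2a), Marchf5 (0.88, Cdkn2b), Dnaja2 (0.825, Cdkn2c) and Cdadc1 (0.861, Cdkn2d) as the most alike. The value for Cdkn2a leans on old CR replicate 5, at 11.2 against 59.5 to 134 in the other mice. Its probe set may also hold no signal of the transcript.

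The spread between mice of a group was wider for the dim probe sets. The coefficient of variation (SD as a percentage of the mean, over 5 mice) had a median of 20.5% for the 9 brighter probe sets and reached 33.4%, and for the 5 dim ones it had a median of 33.9% and reached 91.1%.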

How the data were processed

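RNA of the gastrocnemius from 15 mice, which the labels call biological replicates, was hybridized to MOE430A arrays (Affymetrix), and the authors averaged repeated scans of an array. The deposited values are linear intensities, 1 for each probe set of an array, and all arrays share a mean of 500.0 once 2% of the values are trimmed at both ends. MAS5 and RMA are named in the submitters' processing notes without versions. The values have the scaling of array-by-array processing, whereas the study's methods describe RMA.

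The deposited intensities were put on the log2 scale with no pseudocount and no further normalization, as had been foreseen for a linear table. After 64 control probe sets were removed, limma 3.58.1 (R 4.3.3) was run on 22626 probe sets with all 3 groups together (12 residual and 2.17 prior degrees of freedom), with Benjamini-Hochberg adjustment within each comparison. Alternatives were the brightest 48.1% of probe sets, centering of arrays on medians, quantile normalization, fits of 2 groups, a variance trend with robust eBayes, the replicate number as a block, a 3' minus 5' covariate, each array left out, an adjusted p under 0.10, the mean of a gene's probe sets, and a lognormal-normal model with 5 patterns, written out from the study's methods (called at a posterior probability of at least 0.9). That model was fitted to the brightest 10892 probe sets alone. The number of arrays limits the precision.

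The members and lists were chosen with earlier results of these data known. Named were all 10 members, up to 4 probe sets per list and comparison with the smallest adjusted p, and the 3 probe sets most like each member's brightest one. Promoter windows were read from RefSeq (GRCm38.p6). The steps were tested on simulated data. NumPy 2.4.6, pandas 2.3.3, SciPy 1.17.1 and Matplotlib 3.10.9 were used in Python 3.11.15.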

Additional observations from a re-analysis of the deposited data

Results flagged for a closer look

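Cdkn2a in old CR replicate 5 stood apart from its group, at an intensity of 11.2 against 72.5 to 120 in the other 4 old CR mice. On the log2 scale of the tests the gap to the nearest mouse was 0.787 of the group's range, above Dixon's critical value of 0.71 for 5 samples. On the linear scale it was 0.563, which does not reach that value. Of 42 groups of 5 log2 values tested this was the one that passed, and chance alone passes about 1 in 20.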

How the results depend on the processing

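Of the 14 probe sets, 1 was called for old against young, and 3 were called among the brightest 48.1% of probe sets, with a variance trend and robust eBayes or at an adjusted p under 0.10 (Cdkn1a, Btg1 and Rb1 in each), 2 with the lognormal-normal model (Cdkn1a and Btg1), and 0 with only the 2 groups in the fit, the replicate block or the 3' minus 5' covariate. Leaving out each array gave 0 (without young replicate 1) to 4 (without young replicate 3). For old CR against old, 2 were called, against 1 with only the 2 groups in the fit, 0 with the replicate block, 0 with the covariate and 0 to 2 with an array left out (0 without old CR replicate 7). For old CR against young 0 of 14 were called by limma under each alternative, with 4 at an unadjusted p under 0.05. Over the probe sets of each fit, the 60 calls for old against young became 603, 418, 380 and 542 under those first 4 alternatives. They became 6 with 2 groups and 0 with the block or the covariate. With an array left out they ranged from 0 (without young replicate 1) to 1067 (without young replicate 3), against 462 to 1657 for old CR against old and 7 to 34 for old CR against young. The 1102 for old CR against old became 1812 among the brightest, 1666 with the trend, 2289 at 0.10, 4 with the block and 0 with the covariate, and the 20 for old CR against young became 217, 151 and 99 under the first 3 of these, 239 with the lognormal-normal model, 12 with centered arrays, 6 with 2 groups, 8 with the covariate and 0 with the block. Same-numbered mice did not deviate together (correlations -0.272 to 0.079), so the numbers were not taken as pairs. With the block, Cdkn1a had adjusted p of 0.191 for age and 0.203 for CR, and Btg1 0.21 for CR.

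Averaging a gene's probe sets gave Cdkn1a 1.08 for old against young (adjusted p = 0.172 by limma) and -0.31 for old CR against old (0.661), and Btg1 -0.87 for old CR against old (0.0533). It turned the sign of Btg2 to 0.19 for old CR against old and 0.19 against young, of Cdkn1b to -0.10 and of Btg1 to 0.02 for old CR against young. Other sign changes were all in values that were not called. For old against young, Cdkn1b probe set 1 became 0.01 and Btg2 probe set 2 0.09 with centered arrays, Btg2 probe set 2 0.04 with quantile normalization, and with the covariate Cdkn2c became -0.22 and Btg2 probe set 2 0.01. Cdkn1a probe set 2 became -1.28 for old CR against old with the covariate. With the replicate block, Cdkn2b became -0.03 and Cdkn2d 0.02 for old CR against young. With an array left out, old against young ranged over -0.17 to 0.06 for Cdkn1b probe set 1, -0.09 to 0.12 and -0.14 to 0.12 for the Btg2 probe sets and -0.04 to 0.16 for Tob1. Old CR against old ranged over -0.28 to 0.61 for Cdkn1a probe set 2 and -0.54 to 0.32 for Cdkn2a, which was above 0 only in the fit without old CR replicate 5. Old CR against young ranged over -0.05 to 0.51 for Cdkn2b and -0.23 to 0.03 for Btg1 probe set 1. The cause of these changes was not tested.

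Over the members' values and alternatives, averaged probe sets included, 864 kept their direction and side of the threshold, 20 lost the call, 7 gained it and 30 changed sign. The dim probe sets of Cdkn1a, Cdkn1b, Cdkn2a, Cdkn2b and Btg1 are limited by signal, and no detection calls were used here.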
